A study of Arabidopsis thaliana with 6 samples.

Results

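The genes described here are 8 members of the photoperiod pathway of Arabidopsis thaliana: the blue-light receptor genes FKF1 (AT1G68050), ZTL (AT5G57360) and LKP2 (AT2G18915), the clock output gene GIGANTEA (GI, AT1G22770), and the CYCLING DOF FACTOR genes CDF1 (AT5G62430), CDF2 (AT5G39660), CDF3 (AT3G47500) and CDF5 (AT1G69570). They were taken by identifier, and all 8 were found among the 36917 genes of the expression table. RNA came from seedlings of 2 genotypes, 3 samples labelled bbx14-1 (a line named for the B-box transcription factor gene BBX14) and 3 of the wild type Col-0 (WT). Every sample shared the same regime, which began with 3 days of cold stratification at 4 °C and a 2 h white-light pulse. Then came 3 days of growth in darkness and 1 day of light, and the light intensity given was 100 umol photons per m2 per s. The labels name the line but not its lesion, its backcrossing or the hour of harvest, and do not say that samples of a genotype were grown separately. The p-values therefore reflect how far these samples scatter, part of which may be technical.

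FKF1, ZTL and LKP2 each join a flavin-binding LOV domain that senses blue light to an F-box, which docks on a ubiquitin ligase, and to a kelch-repeat domain that binds targets. GI binds the LOV domain in blue light, stabilizes ZTL, and forms with FKF1 the complex that removes the CDF proteins late in a long day. The CDFs are Dof-type zinc finger factors that repress CONSTANS (CO) and FLOWERING LOCUS T (FT), so their removal lets flowering proceed. In plants under day and night cycles, GI and FKF1 transcripts peak towards the evening, CDF1 transcripts are high in the morning, and ZTL is known for control of its protein more than of its mRNA.

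Recovered depth ran from 25505859 to 32621183 reads in the bbx14-1 libraries and from 20939505 to 32064650 in WT, and plastid genes took 49.61% to 56.67% of reads. The mRNA of BBX14 itself (AT1G68520) was 649, 761 and 892 normalized counts in the libraries labelled bbx14-1, against 540, 683 and 517 in WT. It was therefore not lower in the labelled mutant (log2 difference 0.40, SE 0.13; limma, adjusted p = 0.0726), and the groups overlapped. It was called higher without bbx14-1 replicate 1 (0.52; limma, adjusted p = 0.0306) and without WT replicate 2 (0.53; limma, adjusted p = 0.0199). A gene-level count cannot show whether the transcript carries a lesion, so BBX14 mRNA does not check the label, and every direction below refers to the libraries labelled bbx14-1. All 8 members lay well above a floor of 3 reads, which amounts to 2.40 to 3.77 in normalized units and covers counting error only. The weakest of them, CDF5, had at least 48 reads in any library.

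The evening element is the sequence that the morning factors CCA1 and LHY and their REVEILLE relatives bind in promoters of evening-expressed genes. Its letters, AAAATATCT, were searched on both strands of the 1000 bases before each annotated gene start of TAIR10.1 (RefSeq). Among the 8 members the search matched 2 genes, FKF1 with 2 copies and GI with 3, while the other 6 had 0. Of 27443 protein-coding genes, 7.2% held at least 1 copy. The stretches that carry the copies are shown because FKF1 and GI are also the members whose transcripts changed. That of FKF1 lies at chr1:25508246-25508481 on the plus strand, with copies that begin 373 and 186 bases before the start. That of GI lies at chr1:8060922-8061188 on the plus strand, with copies at 809, 777 and 591 bases. The capitals mark the evening elements, which on the opposite strand read AGATATTTT.

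FKF1: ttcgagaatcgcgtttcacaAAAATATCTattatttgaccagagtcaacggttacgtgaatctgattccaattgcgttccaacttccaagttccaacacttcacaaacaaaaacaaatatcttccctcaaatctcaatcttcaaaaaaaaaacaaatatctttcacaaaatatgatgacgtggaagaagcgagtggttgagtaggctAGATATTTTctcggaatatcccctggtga

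GI: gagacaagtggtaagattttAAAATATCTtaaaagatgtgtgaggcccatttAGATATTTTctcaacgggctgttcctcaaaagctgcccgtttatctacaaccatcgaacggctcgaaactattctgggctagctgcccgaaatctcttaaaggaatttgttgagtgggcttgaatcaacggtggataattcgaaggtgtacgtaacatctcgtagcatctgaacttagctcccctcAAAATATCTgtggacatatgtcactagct

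CDF5 had no evening element but 3 copies of the G-box, CACGTG, which bZIP and bHLH light-signalling factors bind and which was present upstream of 14.8% of genes. CDF2 had 1 G-box and the other members had 0. The CDF5 stretch, the only one among the members with several G-boxes, lies at chr1:26164401-26164610 on the minus strand, with the G-boxes in capitals.

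CDF5: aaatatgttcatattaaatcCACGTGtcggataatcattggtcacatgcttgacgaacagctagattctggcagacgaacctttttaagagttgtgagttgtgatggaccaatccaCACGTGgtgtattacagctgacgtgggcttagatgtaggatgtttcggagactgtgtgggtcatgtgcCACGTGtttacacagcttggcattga

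The shorter CCA1-binding site, AAAAATCT, was found once upstream of LKP2 and once upstream of CDF5, against 21.1% of all genes with at least 1. The LUX-binding letters GATACG or GATTCG occurred upstream of LKP2, GI, CDF2 and CDF5, against 39.8% of all genes, and the letters CCACA, to which CCT-domain proteins of the CO type bind, occurred upstream of all 8 members, against 75.3% of all genes. CACGTG reads the same on both strands and was counted once, and overlaps between different motifs were not removed. A match is a description of the letters and not of a bound site.

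FKF1 was the member that changed most. Its transcript was 228, 213 and 230 normalized counts in the libraries labelled bbx14-1, against 1006, 922 and 921 in WT. All bbx14-1 values lay far below all WT values, and the spread within each genotype was small, with a coefficient of variation of 4.2% in bbx14-1 and 5.1% in WT. The means were 224 ± 9.41 and 950 ± 48.7 (SD, n = 3 each), a ratio of 0.235. On the log2(normalized count + 1) scale FKF1 fell by 2.08 (SE 0.12, 95% interval -2.32 to -1.84; limma, adjusted p = 2.28e-11). By p-value FKF1 ranked 2 among 19003 genes tested. It was also among the 11 genes with an adjusted p under 0.05, here named called genes, that had a difference of -2.08 or lower. FKF1 has 2 exon blocks with 2168 exon bases on chromosome 1, from 25508639 to 25510907, and ends 197.3 kb from BBX14.

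The other receptor genes of the family were not called. ZTL, the receptor that targets the clock proteins TOC1 and PRR5 for degradation, had 823, 937 and 943 normalized counts in the libraries labelled bbx14-1, against 1033, 1173 and 941 in WT. The groups overlapped through bbx14-1 replicate 3 and WT replicate 3. The log2 difference was -0.22 (95% interval -0.43 to 0.00; limma, adjusted p = 0.301). LKP2, the least studied of the receptors, which like FKF1 binds CDF proteins, had 346, 287 and 401 normalized counts in bbx14-1 and 346, 432 and 360 in WT. These values were interleaved, and the log2 difference was -0.14 (95% interval -0.44 to 0.15; limma, adjusted p = 0.676). The intervals of ZTL and LKP2 leave room for a moderate fall and do not reach the size seen for FKF1.

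GI, a large nuclear protein that works with FKF1 and ZTL, was the most abundant member and the other one that fell. It had 2732, 2905 and 2930 normalized counts in the libraries labelled bbx14-1, against 4435, 4279 and 4077 in WT. Each bbx14-1 library was below every WT library, and the spread was again narrow, at a coefficient of variation of 3.8% in bbx14-1 and 4.2% in WT. The means were 2856 ± 108 and 4264 ± 180 (SD, n = 3 each), a ratio of 0.67. GI fell by 0.58 on the log2 scale (SE 0.08, 95% interval -0.75 to -0.40; limma, adjusted p = 0.000101). Without the shared variance trend the adjusted p of GI was 0.108, whereas that of FKF1 was 0.00548.

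None of the CDF genes was called in either direction. CDF1, the founding member of the CO repressors, had 199, 241 and 250 normalized counts in the libraries labelled bbx14-1 and 251, 195 and 207 in WT. CDF2, which acts redundantly with CDF1, had 200, 264 and 258 in bbx14-1 and 224, 241 and 260 in WT. The values of both genes were interleaved between the genotypes, with log2 differences of 0.08 (95% interval -0.24 to 0.41; limma, adjusted p = 0.861) for CDF1 and -0.01 (95% interval -0.33 to 0.30; limma, adjusted p = 0.98) for CDF2. The sign of CDF2 turned without bbx14-1 replicate 1 (0.11) and without WT replicate 3 (0.04).

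CDF3, the most abundant CDF, also known for roles in cold and drought tolerance, had 1021, 1022 and 1148 normalized counts in the libraries labelled bbx14-1, against 1187, 1265 and 1174 in WT. CDF5 had 79.2, 91.4 and 84.0 in bbx14-1, against 46.3, 60.3 and 60.5 in WT. The groups of these genes did not overlap, with CDF3 lower and CDF5 higher in bbx14-1, yet neither passed the test. The log2 difference of CDF3 was -0.19 (95% interval -0.38 to 0.01; limma, adjusted p = 0.338). That of CDF5 was 0.61 (95% interval 0.09 to 1.12; limma, unadjusted p = 0.0231, adjusted p = 0.2). CDF5 had the lowest counts of the members, and its interval was the widest of the 8. It lies 450.5 kb from BBX14 and is overlapped over 1241 bases by an annotated antisense RNA gene (AT1G69572), which was listed at 0 in all 6 libraries. The antisense partner of LKP2, AT2G18917, was also at 0, and that of FKF1, MAP70-1, overlaps it by 21 bases. AT1G69572 lies wholly within CDF5. Since the strand setting of counting is not given, its values of 0 do not show that the antisense RNA of CDF5 is absent. AT2G18917 overlaps LKP2 over 370 of its 990 bases, and the same limit holds for that part. The effect of the overlap with AT1G69572 on the CDF5 counts was not tested.

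In all, 2 of 8 members were called lower and 0 higher by limma, against 2.14% of all tested genes called lower, 2.51% called higher and 4.65% called in either direction. At an unadjusted p under 0.05, 2 members were lower and 1 was higher, against 8.16% and 8.57% of all tested genes (16.7% in either direction). Limma voom on the recovered reads called the same numbers as the main test, 2 and 0. Without the variance trend limma called 28 genes. Among the members, the genes of nearest pattern and the called genes of the pathway lists, those called were FKF1, PRR5, TOC1 and AT4G33980. The genotypes did not overlap for 4 of 8 members, against 21.0% of tested genes. The median log2 difference of the members was -0.17, against 0.003 for all tested genes. The members and the lists below were chosen with earlier results of these data known, so such counts are a description and no test. Fewer cells that express a gene and less RNA per cell cannot be told apart in such bulk samples.

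**Figure D1:**
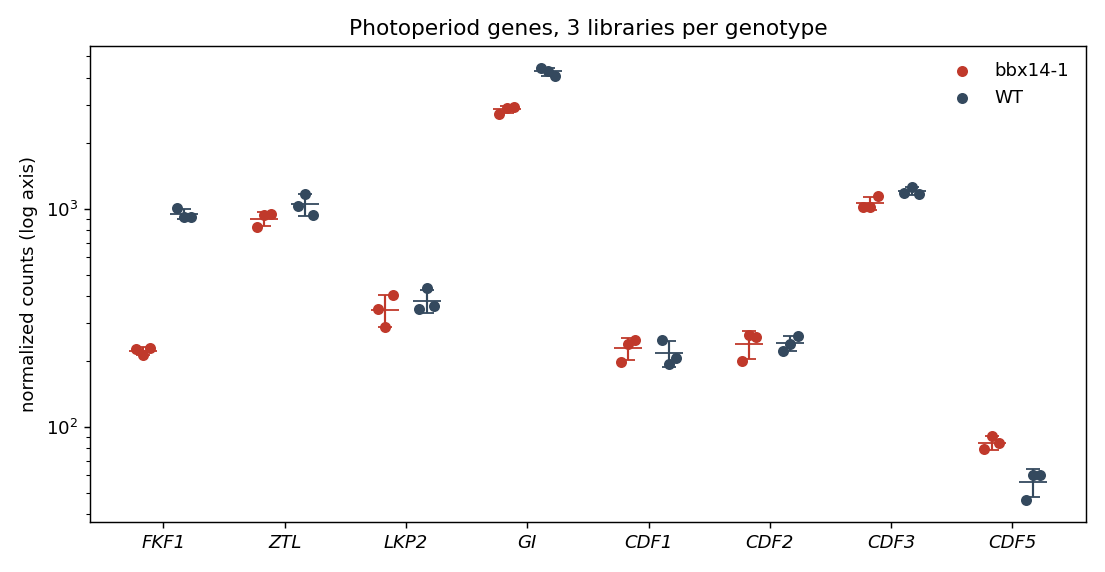
Normalized counts (log axis) of the 8 photoperiod genes in each library, with bbx14-1 in red on the left of each gene and WT in dark blue on the right; bars give the mean and SD of 3 libraries. FKF1 was 224 ± 9.41 in bbx14-1 and 950 ± 48.7 in WT, and the groups are also apart for GI, CDF3 and CDF5.

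**Figure D2:**
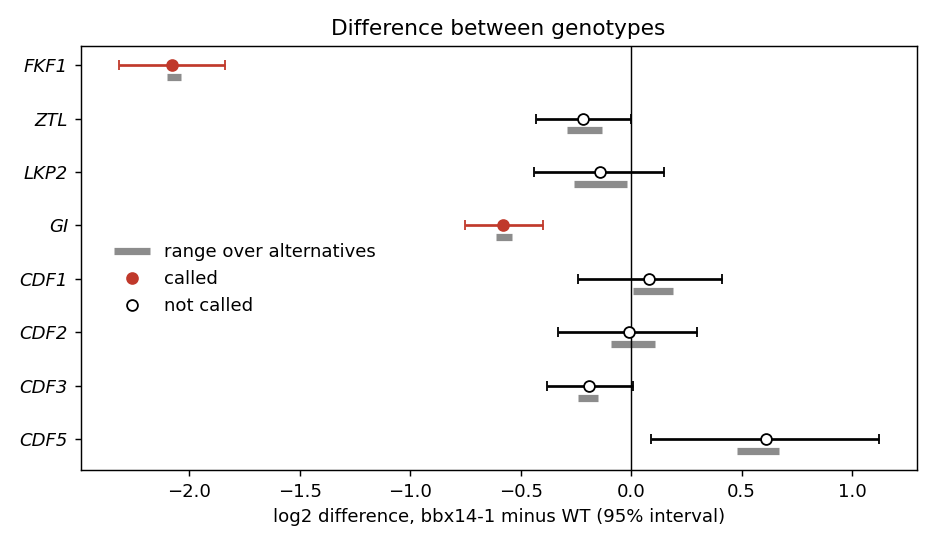
Log2 difference of each photoperiod gene, bbx14-1 minus WT, with its 95% interval; filled red points are called, open points are not, and grey bars span the values over the 15 alternative settings. FKF1 stayed between -2.10 and -2.04 and GI between -0.61 and -0.54, while the intervals of ZTL, LKP2, CDF1, CDF2 and CDF3 reach or cross 0.

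Dividing by exon length allowed levels to be compared between genes, as normalized counts per kilobase of exon. CDF5 was divided by all its exon bases, although an antisense gene overlaps it over 1241 bases. The effect of this overlap on its level was not tested. In the libraries labelled bbx14-1 the order was GI (664 ± 25.1), CDF3 (560 ± 38.6), ZTL (369 ± 27.8), CDF1 (161 ± 19.0), LKP2 (147 ± 24.4), FKF1 (103 ± 4.34), CDF2 (99.5 ± 14.7) and CDF5 (44.0 ± 3.18; SD, n = 3). In WT it was GI (991 ± 41.8), CDF3 (636 ± 25.9), FKF1 (438 ± 22.5), ZTL (430 ± 47.9), LKP2 (162 ± 19.6), CDF1 (152 ± 20.6), CDF2 (99.8 ± 7.54) and CDF5 (28.9 ± 4.24; SD, n = 3). FKF1 thus stood beside CDF2 in bbx14-1, with ranges of 98.2 to 106 and 82.6 to 109 per kilobase, and beside ZTL in WT, with ranges of 425 to 464 and 385 to 481. CDF1 and LKP2 overlapped in both genotypes, and the other neighbours in each order did not overlap.

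Ratios of these per-kilobase levels within a library are free of the scaling between libraries. They reuse the counts given above, so they restate the falls of FKF1 and GI and are no separate result. FKF1 over ZTL was 0.312, 0.256 and 0.275 in bbx14-1, against 1.10, 0.885 and 1.10 in WT. In every bbx14-1 library the ratio was below that of every WT library. GI over FKF1, the partners of 1 complex, was 6.04, 6.88 and 6.42 in bbx14-1, against 2.22, 2.34 and 2.23 in WT. Here every bbx14-1 library was above every WT library. FKF1 over the summed level of CDF1, CDF2, CDF3 and CDF5, the transcripts of its targets, was 0.120 ± 0.0100 in bbx14-1 and 0.478 ± 0.0258 in WT, and GI over the same sum was 0.769 ± 0.0324 and 1.08 ± 0.0390 in bbx14-1 and WT (SD, n = 3 each).

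The genes whose pattern over the 6 libraries was nearest to each called member were found by the root-mean-square difference of centred log2 values among genes with a mean of at least 50. For FKF1 these were AT4G33980 (0.195), the clock repressor gene PRR5 (0.257) and AT1G22490 (0.265), a gene of a bHLH protein. AT4G33980 had 67.2, 91.4 and 77.0 normalized counts in bbx14-1, against 352, 274 and 272 in WT. Its log2 difference was -1.92 (limma, adjusted p = 3.23e-07). PRR5 had 1091, 1465 and 1290 in bbx14-1, against 4460, 3623 and 4376 in WT. For GI the nearest genes were LPR2 (0.049), of the root response to phosphate, AT4G36790 (0.049) and AT4G17840 (0.050), at log2 differences of -0.53, -0.54 and -0.58 (limma, adjusted p = 0.00195, 0.0714 and 0.00229). AT4G36790 did not pass the test. All these genes were picked for their likeness to FKF1 or GI over the same 6 libraries. Their falls and adjusted p therefore follow from the choice and are no separate result.

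Downstream of the CDFs, CO was weakly expressed and FT was not detected in these seedlings. CO, the direct CDF target that activates FT in leaves, had 23.2, 8.60 and 13.01 normalized counts in bbx14-1 and 18.5, 13.8 and 24.2 in WT, with a log2 difference of -0.39 (95% interval -1.45 to 0.67; limma, adjusted p = 0.781). FT, the mobile flowering signal, was at 0 in all 6 libraries, as were FUL and AP1. At these depths 0 reads allow a level of up to 2.40 to 3.77 normalized counts per library. Of 8 genes in the list of CO, FT and floral integrators, 3 were tested, and 1 was called lower and 0 higher (limma; 1 and 0 at an unadjusted p under 0.05, and 1 and 0 by voom), with a median of -0.55. The shares of all tested genes were 2.14% called lower and 2.51% called higher (8.16% and 8.57% at an unadjusted p under 0.05). The called gene was SOC1, a MADS-box integrator, at 201.5, 174 and 163 normalized counts in bbx14-1 and 256, 265 and 307 in WT (log2 difference -0.62; limma, adjusted p = 0.018). It lost its call without bbx14-1 replicate 2 or 3 or WT replicate 3 (limma, adjusted p = 0.0558, 0.0668 and 0.113).

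Of 22 regulators of CO and FT, 21 were tested, 2 were called lower and 0 higher by limma (8 lower and 0 higher at an unadjusted p under 0.05, where 8.16% and 8.57% of all tested genes stood; 3 and 0 by voom), with a median of -0.19. The shares of all tested genes called by limma were 2.14% lower and 2.51% higher. TEM1, a repressor of FT, had 2146, 1859 and 1885 normalized counts in bbx14-1, against 2713, 2628 and 2717 in WT, and fell by 0.45 (limma, adjusted p = 0.00234). For its relative TEM2 the log2 difference was -0.32 (limma, adjusted p = 0.036). Among the fits without a library, only that without bbx14-1 replicate 3 kept the TEM2 call, and the others gave adjusted p from 0.0556 to 0.193 (limma). TEM2 also lost its call under quantile normalization (limma, adjusted p = 0.0831). None of FBH1, FBH2, FBH3 and FBH4, the bHLH activators of CO, was called, nor were the photoreceptor genes CRY1, CRY2, PHYA and PHYB.

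Among 21 partners and substrates of GI, the ZTL family and the CDFs, 3 were called lower and 1 higher (limma), with a median of -0.12. Of all tested genes, 2.14% were called lower and 2.51% higher. At an unadjusted p under 0.05 (limma), 7 of the 21 were lower and 3 higher, against 8.16% and 8.57% of all tested genes. The called genes that fell are clock genes. PRR5 and TOC1, substrates of ZTL and its relatives, fell by 1.70 and 1.10 (limma, adjusted p = 1.87e-10 and 3.60e-08), and TOC1 had 992, 925 and 1028 normalized counts in bbx14-1, against 2208, 2017 and 2083 in WT. ELF3, a subunit of the evening complex that also binds GI, fell by 0.40 (limma, adjusted p = 0.0273), and CHE, a TCP factor and ZTL substrate, rose by 0.41 (limma, adjusted p = 0.0359). ELF3 lost its call without bbx14-1 replicate 2 or any single WT replicate (limma, adjusted p from 0.0665 to 0.113), and CHE without bbx14-1 replicate 1 or 3 or WT replicate 1 or 3 (limma, adjusted p from 0.111 to 0.197). Not called were the ubiquitin ligase subunits ASK1, ASK2, CUL1 and RBX1, with which the receptors form their complex. The same held for the TOPLESS corepressor genes TPL, TPR1, TPR2, TPR3 and TPR4, recruited by CDF proteins, and for UBP12 and UBP13, the deubiquitinases that stabilize GI and ZTL.

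A further list held 11 other clock genes whose products act on the promoters of photoperiod genes. Of these, 2 were called lower, 1 higher and 8 were not called (limma), with a median of -0.23. Among all tested genes, 2.14% were called lower and 2.51% higher. At an unadjusted p under 0.05 (limma), 5 of the 11 were lower and 3 higher, against 8.16% and 8.57% of all tested genes. LHY, a morning MYB factor that represses genes through the evening element, had 162, 279 and 214 normalized counts in bbx14-1, against 74.0, 108 and 113 in WT, and rose by 1.13 (limma, adjusted p = 0.00179). Its partner CCA1, named after its values were seen, was at 550, 617 and 590 in bbx14-1 and 439, 490 and 450 in WT, with no overlap and a log2 difference of 0.35 that was not called (limma, adjusted p = 0.0806). LUX, the DNA-binding subunit of the evening complex, fell by 0.81 (limma, adjusted p = 0.00033), and PRR7 fell by 0.32 (limma, adjusted p = 0.0273). PRR7 lost its call under quantile normalization (limma, adjusted p = 0.0545) and without any single library but WT replicate 3 (limma, adjusted p from 0.0512 to 0.143).

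The rest of the Dof family showed no call. Of 32 other Dof genes 23 were tested, and limma called 0 higher and 0 lower, with 0 at an unadjusted p under 0.05 and 0 by voom, and a median of 0.13. Over all tested genes, 4.65% were called in either direction and 16.7% had an unadjusted p under 0.05 (limma). The remaining CDF relatives were weakly expressed, with CDF4 at 19.2, 4.30 and 14.0 normalized counts in bbx14-1 and 5.89, 27.6 and 6.05 in WT, and CDF6 at 4.00 or less in bbx14-1 and 6.05 or less in WT. COG1, a Dof gene of phytochrome signalling, was at -0.18 (limma, adjusted p = 0.848), and the most abundant Dof genes, OBP4 and AT4G24060, were at 0.14 and 0.11, with none of these 3 called.

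**Figure D3:**
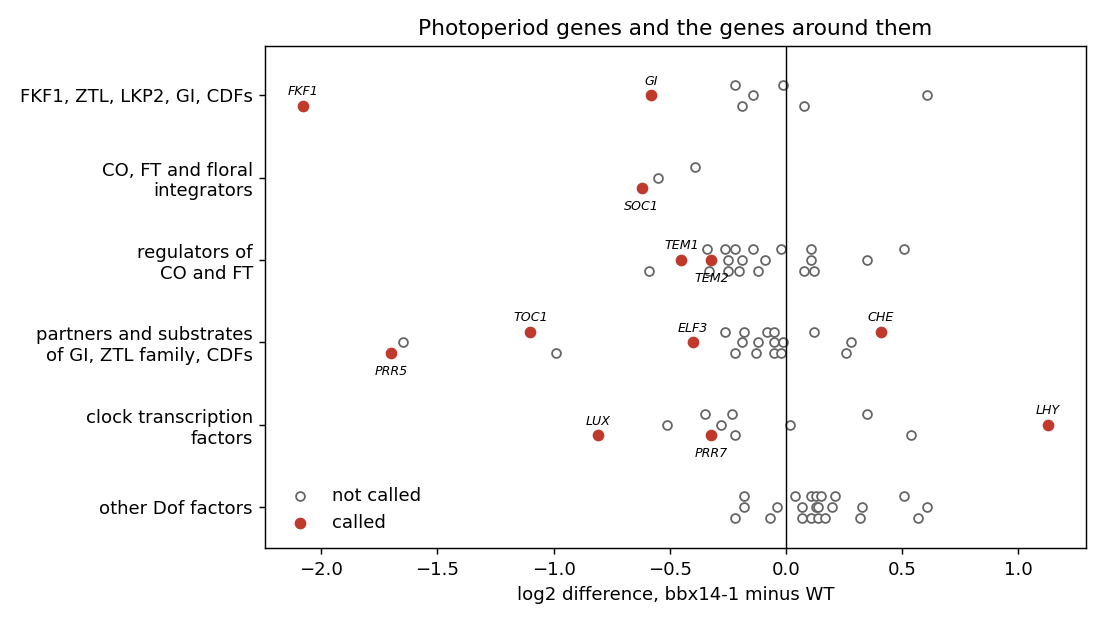
Log2 difference, bbx14-1 minus WT, of every tested gene in the photoperiod set and in the lists around it, 1 point per gene; filled red points with names are called, open points are not. FKF1 at -2.08 and PRR5 at -1.70 lie at the low end and LHY at 1.13 at the high end, and none of the 23 tested Dof genes outside the set is called.

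The evening element that FKF1 and GI share was then counted upstream of all tested protein-coding genes with a full window. With 2 or more copies, 21 of 106 genes were called lower (19.81%) and 1 higher (0.94%), with a median log2 difference of -0.14. FKF1, GI and PRR5, with 2, 3 and 3 copies, belong to these 106 genes. With exactly 1 copy, as for TOC1, LUX and LPR2, 69 of 1231 genes were called lower (5.61%) and 23 higher (1.87%). With none, 308 of 16994 were called lower (1.81%) and 423 higher (2.49%), and AT4G33980 and AT1G22490, nearest to FKF1 in pattern, are among the genes without a copy. For the G-box the same shares varied less, with 3.31% called lower among 543 genes with 2 or more copies and 2.04% among 15402 genes with none. The other motifs were not counted in this way, so whether the evening element stands apart from them was not tested. These shares are given as a description, with no test.

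**Figure D4:**
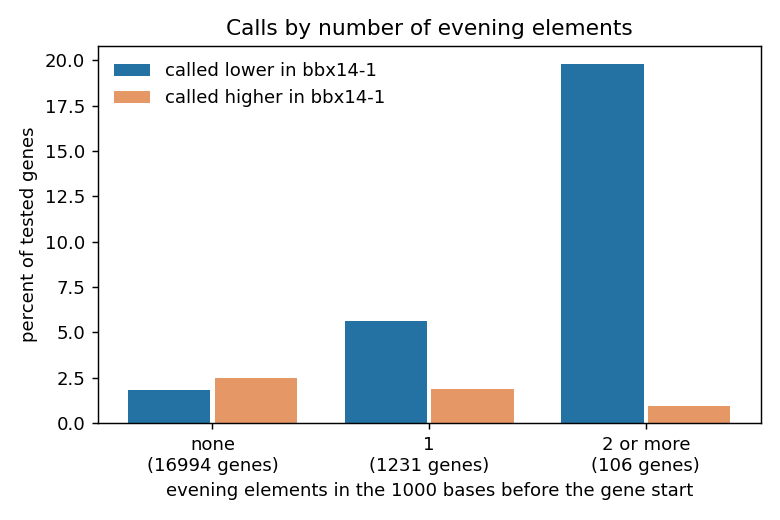
Share of tested genes called lower (blue) and called higher (orange) in the libraries labelled bbx14-1, by the number of evening elements in the 1000 bases before the gene start. The share called lower was 1.81% with none, 5.61% with 1 and 19.81% with 2 or more, while the share called higher was 2.49%, 1.87% and 0.94%.

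FKF1 and CDF5 lie on the chromosome arm that carries BBX14. The identifier of TEM2 (AT1G68840), called lower above, falls between those of BBX14 and CDF5, and its distance from BBX14 was not measured. Within 250 kb of BBX14 on either side, 5 of 87 tested genes were called lower and 4 higher (10.3% called), and within 500 kb 7 of 188 were lower and 7 higher (7.45% called), against 4.65% of all tested genes. FKF1 itself, at 197.3 kb, is among the genes counted as lower within 250 kb. GI, the other called member, lies 17640.4 kb from BBX14. The part that linkage to BBX14 plays in the FKF1 and TEM2 results was not tested.

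Marker genes of tissues were compared because FKF1, GI and the CDFs are known to act on CO and FT in phloem companion cells. Of 5 phloem genes 2 were called lower and 0 higher (limma; 2 and 0 at an unadjusted p under 0.05 and by voom). Of all tested genes, 2.14% were called lower and 2.51% higher (8.16% and 8.57% at an unadjusted p under 0.05). The 2 called were the sugar exporters SWEET11 and SWEET12, at -0.47 and -0.36 (limma, adjusted p = 0.00199 and 0.0264). The companion cell marker SUC2 and the phloem genes APL and NAKR1 went the other way, at 0.09, 0.23 and 0.06, with none called. The summed level, which includes SWEET11 and SWEET12, was 4717 to 5225 normalized counts in bbx14-1 and 5380 to 6072 in WT. Root, guard cell, epidermis and green tissue markers had 0 called of 7, 4, 2 and 3 by limma (2, 1, 1 and 1 higher and 0 lower at an unadjusted p under 0.05; 1, 0, 0 and 1 higher and 0 lower by voom). The summed root markers reached 33394 to 41123 in bbx14-1 and 27194 to 30188 in WT, mostly from PYK10, and those of guard cells 681 to 817 and 536 to 643 in bbx14-1 and WT. Epidermis markers summed to 3880 to 4955 in bbx14-1 and 3516 to 3919 in WT, and green tissue markers to 222037 to 275310 and 203777 to 227820. Of 2 seed storage genes 1 was called lower (limma; both at an unadjusted p under 0.05, and 1 by voom), with sums of 45.1 to 58.0 in bbx14-1 and 98.8 to 530 in WT, the highest being WT replicate 1. No marker was at 0 in all libraries, and without WT replicate 1 FKF1 was at -2.04 and GI at -0.55. The part of tissue makeup in these results was not tested.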

How the data were processed

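The authors deposited 1 table of normalized counts for all 6 libraries, which its name credits to DESeq2 and which is written with decimal commas. Tools listed by the submitters' processing notes are TopHat2 2.1.1, featureCounts, DESeq2, FastQC and Trimmomatic, with TAIR10 as the build. The strand setting of counting is not given in the sources used here. Libraries were made from rRNA-depleted total RNA with strand marking by dUTP, per the labels' protocols. Dividing by the step between low values gave whole reads for 100% of values within 0.01.

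Genes with a mean of at least 10 were tested on log2(value + 1) with limma 3.58.1 in R 4.3.3, with a variance trend, Benjamini-Hochberg adjustment over 19003 genes and a threshold of 0.05. The fold change is bbx14-1 minus WT and understates changes of low genes. Limma called 883 genes, and voom on recovered reads, with TMM scaling, called 901. The code was tested on simulated data. The members, lists and the rule for named genes (the members, called list genes up to 6, the most abundant 2 where none was called, and nearest patterns) were chosen with earlier results of these data known. No replicate pair agreed within sampling noise (chi-square per degree of freedom of at least 8.08). Of 36917 identifiers, 36632 matched RefSeq annotation of TAIR10.1, the source of positions and sequences. At most 0.87% of the 50-base exon windows of a member occurred elsewhere in the genome.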

Additional observations from a re-analysis of the deposited data

How the results depend on the processing

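FKF1 was called lower under all 15 alternatives run (-2.10 to -2.04; limma, adjusted p from 2.8e-12 to 0.00548). GI was called lower in 14, the exception being the fit with no variance trend (-0.58; limma, adjusted p = 0.108). ZTL, LKP2, CDF1, CDF3 and CDF5 stayed uncalled in the same direction in all 15. CDF2 turned to 0.11 without bbx14-1 replicate 1 and to 0.04 without WT replicate 3, uncalled in each, and ran from -0.09 to 0.11 over the fits without a library. Over the same fits COG1 ran from -0.35 to 0.14 and AT4G24060 from -0.06 to 0.20, all uncalled. CDF4 ran from -0.32 to 0.64, also uncalled, over the 5 of these fits in which it was tested, since without WT replicate 2 its mean fell under the filter. The cause of these turns was not tested.

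With no variance trend limma called 28 genes, 13 higher and 15 lower. In the lists it then called 0 of the floral integrators, 0 of the regulators of CO and FT, 2 of the partners and substrates and 0 of the clock factors. Fits without a single library called 529 to 762 genes, 282 to 437 higher and 247 to 406 lower, with 529 without WT replicate 1 and 577 without WT replicate 3. They called 0 to 1 floral integrators, 1 to 3 regulators of CO and FT, 2 to 4 partners and substrates and 2 to 3 clock factors. Quantile normalization and the replicate block each called 1 regulator of CO and FT, with TEM2 no longer called (limma, adjusted p = 0.0831 and 0.0519).

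Same-numbered samples correlated at 0.04, 0.02 and -0.03 in their deviations. These values show no strong shared deviation, but cannot show whether same-numbered samples were handled together. The fit with the replicate number as a block called 915 genes, 487 higher and 428 lower, with FKF1 at -2.08 and GI at -0.58 (limma, adjusted p = 9.36e-12 and 0.000177). No scaling moved the median log2 difference of all genes by over 0.1. The planned edgeR and DESeq2 tests on the recovered reads were not run, while the planned voom test on the same reads was. Depth limits CO, CDF4 and CDF6, whose counts lie near 10 or below in some libraries.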
